A study of Homo sapiens with 12 samples.

Results

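RAC1 is a small GTPase that cycles between an inactive GDP-bound and an active GTP-bound form and drives actin-based protrusion at the cell edge through the WAVE and Arp2/3 complexes. It acts downstream of receptors such as EGFR through exchange factors such as VAV2. The comparison here sets sgRAC1 clone 3 against sgRAC1 clone 2, a pair of RAC1 knockout clones made with the same guide, sgRAC1_2, so that the guide is held fixed and the clone varies. The members are the 4 libraries of these clones, out of 12 in the series, and the 17810 of 56832 genes in the table with a mean of at least 1 TPM (the length- and library-scaled transcript abundance of the table) in either clone. Of these genes 1695 reached that level in clone 3 alone and 1389 in clone 2 alone.

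All cells were DU145, an established human prostate cancer line, grown with 10% fetal bovine serum. The groups were sgRAC1 clone 3 and sgRAC1 clone 2 (genotype RAC1_KO, guide sgRAC1_2), sgRAC1 clone 1 (RAC1_KO, guide sgRAC1_1), and the RAC1-positive lines, which were sgNTC clone 2 and sgNTC clone 1 (genotype WT, both labelled sgNTC_1, a non-targeting guide) and the untransfected parental line. Clones came from single cells after delivery of guide and Cas9 as a complex, so each line other than the parental one is 1 clone. Each of the 6 lines had 2 libraries that the labels call biological replicates, 1 in each of 2 batches, so a p-value here rests on how far 2 libraries of the same line differ and not on other clones. With 2 libraries against 2, a two-sided exact permutation test cannot go below p = 0.333, and tests were therefore made with limma across all genes, with the spread shared over the 6 lines.

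TPM values sum to 1000000 in each library, so they do not state the number of reads. The 4 libraries of the pair listed 21141 to 22045 genes above 0. Over the genes tested, log2(TPM + 1) values correlated at 0.942 between the libraries of clone 3, at 0.941 between those of clone 2, and at 0.931 to 0.950 between the clones. The library sgNTC clone 2 replicate 1 stood apart, with 13608 genes above 0 and a median correlation with the other libraries of 0.888. It enters the shared spread and the RAC1-positive levels. Of 8 epithelial markers, 7 reached 1 TPM in both clones. The summed level of the 8 was 600 and 773 TPM in clone 3, against 388 and 492 TPM in clone 2. It was 677 and 812 TPM in the parental line, and the RAC1-positive range of 288 to 812 TPM contained both clones. Of 8 luminal prostate markers 1 reached 1 TPM in both clones and 5 were listed at 0, as in the parental line. None of 8 fibroblast and none of 8 neuroendocrine markers reached 1 TPM in any line. Of 8 leukocyte markers 5 were listed at 0 in both libraries of clone 3 and 4 in both of clone 2, and their summed level was 7.90 and 4.74 TPM in clone 3, against 3.57 and 2.10 TPM in clone 2.

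The start regions of several genes named below carry short recognised motifs and are shown first. The part of these motifs in the levels was not tested. Fibrinogen genes are acute phase genes of the liver, whose promoters respond to interleukin-6 through STAT3 and elements with the core CTGGGA. The windows below run from 250 bases before to 50 bases after the gene start, in RefSeq sequence of build GRCh38.p14, written 5′ to 3′ on the strand of the gene, and capitals mark that core on either strand (TCCCAG when reversed). It was present in 33.3% of all 35116 windows, so a match is common.
FGB, chr4:154562730-154563029, plus strand: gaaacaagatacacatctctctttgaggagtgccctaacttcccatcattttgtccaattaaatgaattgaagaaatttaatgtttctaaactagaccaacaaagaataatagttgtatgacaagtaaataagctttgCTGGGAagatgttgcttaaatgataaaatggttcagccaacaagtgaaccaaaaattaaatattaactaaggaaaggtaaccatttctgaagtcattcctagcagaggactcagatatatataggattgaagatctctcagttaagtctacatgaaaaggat
FGA, chr4:154590693-154590992, minus strand: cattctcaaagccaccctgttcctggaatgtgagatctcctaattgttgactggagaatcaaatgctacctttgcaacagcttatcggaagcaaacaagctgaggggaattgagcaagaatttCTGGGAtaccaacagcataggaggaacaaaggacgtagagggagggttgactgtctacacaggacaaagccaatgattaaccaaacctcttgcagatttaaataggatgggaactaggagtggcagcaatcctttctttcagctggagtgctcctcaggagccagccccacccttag
FGG, chr4:154612607-154612906, minus strand: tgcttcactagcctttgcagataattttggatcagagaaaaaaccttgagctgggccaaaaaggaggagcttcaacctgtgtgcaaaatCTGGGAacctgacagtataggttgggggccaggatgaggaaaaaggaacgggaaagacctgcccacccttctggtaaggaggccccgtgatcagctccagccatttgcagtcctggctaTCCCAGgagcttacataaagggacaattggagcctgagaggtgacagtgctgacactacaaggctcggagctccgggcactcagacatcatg
The FGB window is 1 of 2 listed for that gene.

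Interferon-stimulated genes are switched on through a response element whose core reads GAAA, any 2 bases, GAAA. Capitals mark that core on either strand in the next windows, where the reversed form reads TTTC, any 2 bases, TTTC. It was present in 3.57% of all windows. In BST2 there are 2 overlapping matches. The IFIT3 window, with 2 matches, is 1 of 2 listed for that gene, and the other is not shown. It lies inside the gene as placed by GENCODE release 29, which has the gene start at 89327894.
BST2, chr19:17405581-17405880, minus strand: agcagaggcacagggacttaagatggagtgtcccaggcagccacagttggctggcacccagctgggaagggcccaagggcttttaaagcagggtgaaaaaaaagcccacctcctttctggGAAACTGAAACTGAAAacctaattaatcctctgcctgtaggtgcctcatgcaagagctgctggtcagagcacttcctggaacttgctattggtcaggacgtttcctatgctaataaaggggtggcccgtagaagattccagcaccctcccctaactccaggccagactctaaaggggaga
IFIT3, chr10:89332279-89332578, plus strand: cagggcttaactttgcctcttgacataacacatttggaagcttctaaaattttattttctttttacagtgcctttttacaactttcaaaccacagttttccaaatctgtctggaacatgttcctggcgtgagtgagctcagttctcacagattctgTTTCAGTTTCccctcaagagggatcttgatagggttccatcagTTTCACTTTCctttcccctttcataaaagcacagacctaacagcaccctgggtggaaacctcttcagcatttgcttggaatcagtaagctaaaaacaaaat
LGALS3BP, chr17:78979874-78980173, minus strand: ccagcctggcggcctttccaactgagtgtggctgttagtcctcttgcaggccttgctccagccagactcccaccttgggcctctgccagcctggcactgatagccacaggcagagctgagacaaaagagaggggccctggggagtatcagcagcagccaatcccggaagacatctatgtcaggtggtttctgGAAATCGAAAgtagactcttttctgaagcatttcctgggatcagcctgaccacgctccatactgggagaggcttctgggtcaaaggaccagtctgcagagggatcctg
By gene, the core was found near the start of 4.38% of 27305 genes with a window. Of the interferon-stimulated genes tested here, 22 had a window by symbol and 18 of these held the core.

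GSTP1 encodes a glutathione S-transferase, and its CG-rich promoter is known for being methylated and silent in most prostate cancers. Its window held 36 CG pairs, shown in capitals, against a median of 14 over all windows. Methylation was not measured here.
GSTP1, chr11:67583562-67583861, plus strand: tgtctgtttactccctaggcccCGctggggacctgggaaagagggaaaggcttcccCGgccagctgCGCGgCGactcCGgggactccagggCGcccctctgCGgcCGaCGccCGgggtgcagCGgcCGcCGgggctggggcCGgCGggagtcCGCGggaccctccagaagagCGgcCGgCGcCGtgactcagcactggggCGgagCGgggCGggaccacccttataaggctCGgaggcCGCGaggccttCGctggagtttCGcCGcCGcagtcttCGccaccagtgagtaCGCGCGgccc

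RAC1 (chromosome 7, 6374523 to 6403977, GRCh38) was measured at 39.6 and 40.3 TPM in clone 3, against 59.2 and 54.2 TPM in clone 2. Both clone 3 libraries were below both clone 2 libraries. For comparison, sgRAC1 clone 1 had 47.5 and 36.5 TPM and the 6 RAC1-positive libraries had 149 to 202 TPM, so all knockout libraries lay below all RAC1-positive ones. The log2(TPM + 1) difference, clone 3 minus clone 2, was -0.49 (SE 0.19, limma adjusted p = 0.999), which did not pass over all genes. A level per gene does not read the edited site or the protein. Among relatives, RAC2 had 8.24 and 8.52 TPM in clone 3, against 5.65 and 5.76 TPM in clone 2 (limma adjusted p = 0.999), and RAC3 stayed under the level filter. The exchange factor VAV2 had 2.27 and 2.62 TPM in clone 3, against 1.71 and 1.28 TPM in clone 2 (limma adjusted p = 0.999), while VAV3 was listed at 0 in all 4 libraries. EGFR had 12.002 and 14.5 TPM in clone 3, against 19.8 and 17.6 TPM in clone 2 (limma adjusted p = 0.999). RAC2 and VAV2 were thus higher and EGFR lower in both clone 3 libraries, without passing.

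Over all 17810 genes, 4 were called higher and 4 lower in clone 3 at a limma adjusted p under 0.05, 0.0225% in each direction. At an unadjusted p under 0.05 there were 740 genes (4.2%), a share no larger than the threshold of 0.05 itself. Of these, 470 were higher (2.64%) and 270 lower (1.52%) in clone 3. Both clone 3 libraries lay above both clone 2 libraries in 3554 genes (20.0%) and below both in 2679 (15.0%), and genes with such non-overlapping libraries are called apart in what follows. Where 2 libraries and 2 others are interchangeable and hold no ties, they are apart in either direction with a probability of 0.333. The median difference of all genes was 0.02. Of the 8 calls, 7 were genes not annotated as protein coding that were listed at 0 in every library outside the 1 line that had them. Of these 7, 6 were short RNA genes of 83 to 132 bases, among them SNORA36C at 4.65 and 7.26 TPM in clone 3 and 0 in clone 2, and MIR3149 at 0 in clone 3 and 6.90 and 7.32 TPM in clone 2. Multiplied by gene length, the TPM of such RNAs in a library were whole multiples of 1 smallest value, within a tolerance of 2%. The 12 values above 0 of the 6 called short RNAs were 1 or 2 of these smallest steps. If a step stands for 1 read, they rest on 1 or 2 reads. The step was 479 to 613 TPM times bases in the 4 libraries of the pair, but 5114 in sgNTC clone 2 replicate 1. A low gene can therefore be listed at 0 in that library, which is among the RAC1-positive ones. The 8 calls became 0 with the replicate number as a block and 0 without sgNTC clone 2 replicate 1.

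When the same model was fitted to the 10581 protein-coding genes alone, an alternative chosen after seeing the data, 2 genes were called higher and 2 lower in clone 3 (0.0189% in each direction), and 3.25% were higher and 1.07% lower at an unadjusted p under 0.05. Clone 3 was apart higher in 22.6% and apart lower in 15.5% of the protein-coding genes. The called genes were FGB and BST2 on the higher side and GSTP1 and RSPO3 on the lower side. With the replicate block the count was again 4. It was 0 without either clone 3 replicate 2 or clone 2 replicate 1.

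**Figure D1:**
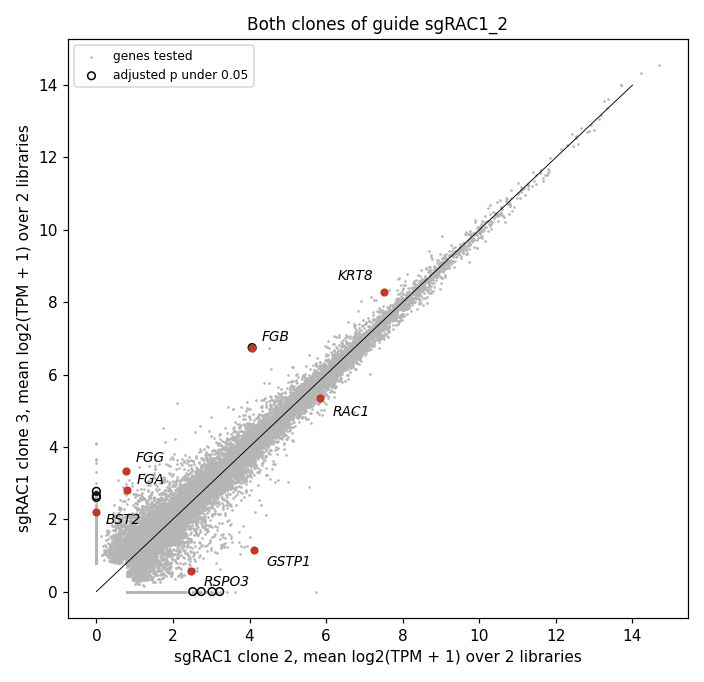
Mean log2(TPM + 1) over 2 libraries in sgRAC1 clone 3 (vertical axis) against sgRAC1 clone 2 (horizontal axis) for the 17810 genes tested. Open circles are the 8 genes called over all genes, red points are 8 genes described in the text, and the line marks equal levels; 7 of the circles lie on an axis because the gene is listed at 0 in 1 clone.

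FGB, the gene of the fibrinogen beta chain (chromosome 4, 154562956 to 154571086), stood at 96.9 and 116 TPM in clone 3, against 16.3 and 15.2 TPM in clone 2. In sgRAC1 clone 1 it was at 3.03 and 5.84 TPM, and the RAC1-positive libraries had 11.3, 21.6 and 45.3 TPM as lowest, median and highest values. Clone 3 was thus above every other library and clone 2 within the RAC1-positive range. The log2 difference between the clones was 2.68 (SE 0.29), with a limma adjusted p of 0.0391 over all genes and 0.00666 over protein-coding genes. It was 2.50 within batch 1 and 2.85 within batch 2. Over all genes the adjusted p was 0.128 with the replicate block and 0.0779 without sgNTC clone 2 replicate 1, and under a filter of 5 TPM it was 0.0776.

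The other fibrinogen chains lie beside FGB on chromosome 4. FGA, for the alpha chain, had 8.37 and 4.24 TPM in clone 3, against 0.579 and 0.921 TPM in clone 2, and at most 0.0544 TPM in the RAC1-positive libraries. FGG, for the gamma chain, had 15.5 and 5.06 TPM in clone 3, against 0.477 and 1.01 TPM in clone 2, and at most 0.811 TPM in the RAC1-positive libraries. All 3 genes had both clone 3 libraries above all 10 other libraries. The differences of FGA (2.01, SE 0.38, limma adjusted p = 0.626) and FGG (2.54, SE 0.54, adjusted p = 0.837) did not pass over all genes, nor over protein-coding genes alone. FGA and FGG reached 1 TPM in clone 3 alone, so their presence among the tested genes rests on that clone. Batch 1 gave the larger differences for these 2 genes, 2.57 against 1.45 in batch 2 for FGA and 3.48 against 1.59 for FGG.

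GSTP1 (chromosome 11, 67583595 to 67586656) had 2.25 and 0.502 TPM in clone 3, against 13.5 and 19.7 TPM in clone 2. It stood at 45.8 and 56.1 TPM in sgRAC1 clone 1 and at 39.7 to 129 TPM in the RAC1-positive libraries. Both clones of sgRAC1_2 were thus below every other library, and clone 3 was below clone 2. The log2 difference was -2.97 (SE 0.44), with a limma adjusted p of 0.177 over all genes and 0.0352 over protein-coding genes. Over 15 alternatives of the protein-coding fit the difference ran from -3.79 to -1.76, and the adjusted p was under 0.05 in 6. Relative to the RAC1-positive mean GSTP1 was -4.93 in clone 3, -1.96 in clone 2 and -0.38 in clone 1. RSPO3, a secreted protein that strengthens Wnt signalling, had 0.386 and 0.603 TPM in clone 3, against 3.78 and 5.54 TPM in clone 2. In sgRAC1 clone 1 it had 19.9 and 23.0 TPM, and the RAC1-positive libraries had at most 1.22 TPM, so clone 3 lay within the RAC1-positive range and clones 2 and 1 above it. RSPO3 passed the level filter through clone 2 alone. Its log2 difference between clones 3 and 2 was -1.91 (SE 0.30), with a limma adjusted p of 0.227 over all genes and 0.0479 over protein-coding genes. Over 14 alternatives of the protein-coding fit the difference ran from -3.00 to -0.81, and the adjusted p was under 0.05 in 6.

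**Figure D2:**
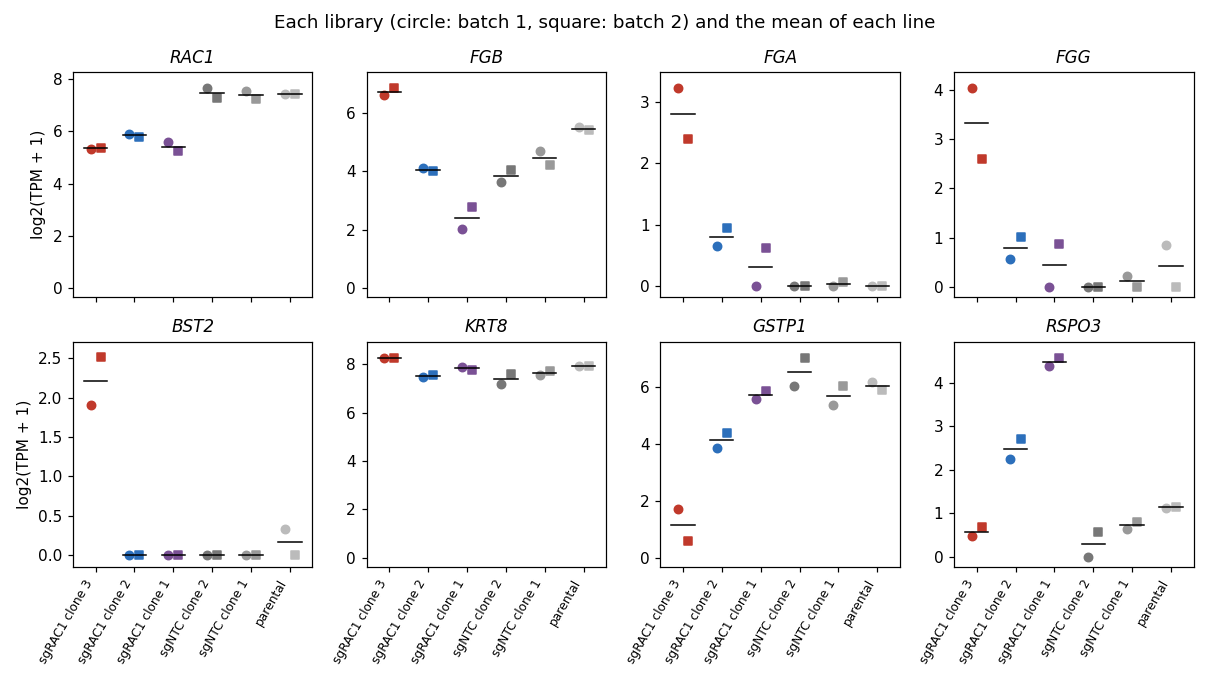
log2(TPM + 1) of 8 genes in each of the 12 libraries, by line, with circles for batch 1, squares for batch 2 and a bar at the mean of each line. FGB, FGA, FGG, BST2 and KRT8 are highest in sgRAC1 clone 3, GSTP1 is lowest there, and RSPO3 is highest in sgRAC1 clone 1.

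Other protein-coding genes named by the smallest p did not pass the adjusted threshold in either fit. KRT8, a keratin of simple epithelia, had 307 and 308 TPM in clone 3, against 174 and 188 TPM in clone 2 (difference 0.76, SE 0.15, limma adjusted p = 0.626). LGALS3, which encodes galectin-3, had 130 and 92.4 TPM in clone 3, against 60.2 and 63.1 TPM in clone 2. The phospholipid scramblase family gene PLSCR4 had 11.2 and 8.39 TPM in clone 3, against 4.20 and 2.87 TPM in clone 2. For all 3 genes the clone 3 libraries were above the clone 2 libraries and above those of the RAC1-positive lines. The solute carrier SLC12A8 had 12.2 and 9.61 TPM in clone 3, against 4.61 and 3.70 TPM in clone 2, and 8.08 and 10.1 TPM in sgRAC1 clone 1. On the lower side, C15orf48 had 66.4 and 62.1 TPM in clone 3, against 134 and 148 TPM in clone 2 (difference -1.12, SE 0.23, limma adjusted p = 0.674). C15orf48 encodes a small mitochondrial protein that can take the place of NDUFA4 in cytochrome c oxidase. NDUFA4 itself, on 7p, had 327 and 286 TPM in clone 3, against 448 and 408 TPM in clone 2 (difference -0.48, SE 0.12, limma adjusted p = 0.999). RBM15, an RNA-binding protein of the complex that writes N6-methyladenosine, had 3.02 and 1.74 TPM in clone 3, against 6.62 and 5.72 TPM in clone 2. The RAC1-positive range of C15orf48 (43.2 to 211 TPM) contained both clones.

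Among protein-coding genes, a set chosen after the values were seen took those with a log2 difference of at least 1, libraries apart and at least 5 TPM in the higher clone. It held 48 genes higher (0.454%) and 6 lower (0.0567%) in clone 3. Of the 48, 39 had an unadjusted limma p under 0.05. The set was selected by difference and non-overlap on these same libraries, so the selection favours small p-values and the count is no support. Examples are GPX2, a glutathione peroxidase, at 9.41 and 11.5 TPM in clone 3, against 1.91 and 3.65 TPM in clone 2 and at most 0.862 TPM in the RAC1-positive libraries. MFAP5, a microfibril-associated protein, had 6.80 and 5.32 TPM in clone 3, against 2.36 and 0.940 TPM in clone 2. FBP1, a gluconeogenic enzyme, had 15.1 and 7.18 TPM in clone 3, against 1.72 and 2.55 TPM in clone 2. The 6 lower genes were GSTP1, FABP4, C15orf48, RBM15, NOG and ZNF92.

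Among 34 of the 36 gene lists with at least 10 members tested, interferon-stimulated genes had the highest median. Type I and type III interferons, or viral RNA, induce these genes, whose products block steps of viral growth. Of 42 listed genes 28 were tested, 4 of which passed the filter through clone 3 alone and 0 through clone 2 alone. Their median log2 difference was 0.71, against 0.02 for all genes, and 0.80 within batch 1 and 0.81 within batch 2. Libraries were apart with clone 3 higher in 23 of 28 and lower in 1, against 20.0% and 15.0% of all genes. An unadjusted p under 0.05 was reached by 15, all higher in clone 3, against 2.64% of all genes, and none passed the adjusted threshold over all genes. Both counts are over all 28, including the 4 that passed through clone 3 alone, and were not repeated without these. With members kept by a mean of at least 1 TPM over all 12 libraries, 25 remained and the median was 0.63. Relative to the RAC1-positive mean, the median of the list was 1.54 in clone 3, 0.54 in clone 2 and 0.71 in sgRAC1 clone 1, and these 3 values share the same RAC1-positive libraries. The single RAC1-positive lines lay between -0.09 and 0.11.

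BST2, or tetherin, which holds budding virions at the cell surface, had 2.74 and 4.71 TPM in clone 3 and was listed at 0 in both libraries of clone 2. It was also listed at 0 in sgRAC1 clone 1 and at most at 0.261 TPM in the RAC1-positive libraries. BST2 passed the level filter through clone 3 alone, so its presence among the tested genes rests on the clone where it is high. Its log2(TPM + 1) difference was 2.21 (SE 0.34), with a limma adjusted p of 0.202 over all genes and 0.0342 over protein-coding genes. Over 14 alternatives of the protein-coding fit the difference ran from 0.79 to 5.21 and the adjusted p was under 0.05 in 9. IFIT3, which binds foreign RNA together with other IFIT proteins, had 44.4 and 65.0 TPM in clone 3, against 19.7 and 24.4 TPM in clone 2 (difference 1.25, SE 0.31, limma adjusted p = 0.999). Further members were chosen after their values were seen. ISG15, a ubiquitin-like protein, had 211 and 220 TPM in clone 3, against 101 and 126 TPM in clone 2 and at most 90.5 TPM in the RAC1-positive libraries. IFI6 had 51.8 and 54.9 TPM in clone 3, against 19.9 and 19.7 TPM in clone 2. OASL, a relative of the oligoadenylate synthetases, had 33.7 and 30.9 TPM in clone 3, against 10.3 and 11.6 TPM in clone 2. LGALS3BP, a secreted glycoprotein that binds galectin-3, had 24.5 and 16.7 TPM in clone 3, against 5.11 and 4.91 TPM in clone 2. The exceptions were IFIT5 at 15.4 and 20.8 TPM in clone 3, against 26.1 and 22.2 TPM in clone 2, and HERC5, whose difference was -0.02.

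**Figure D3:**
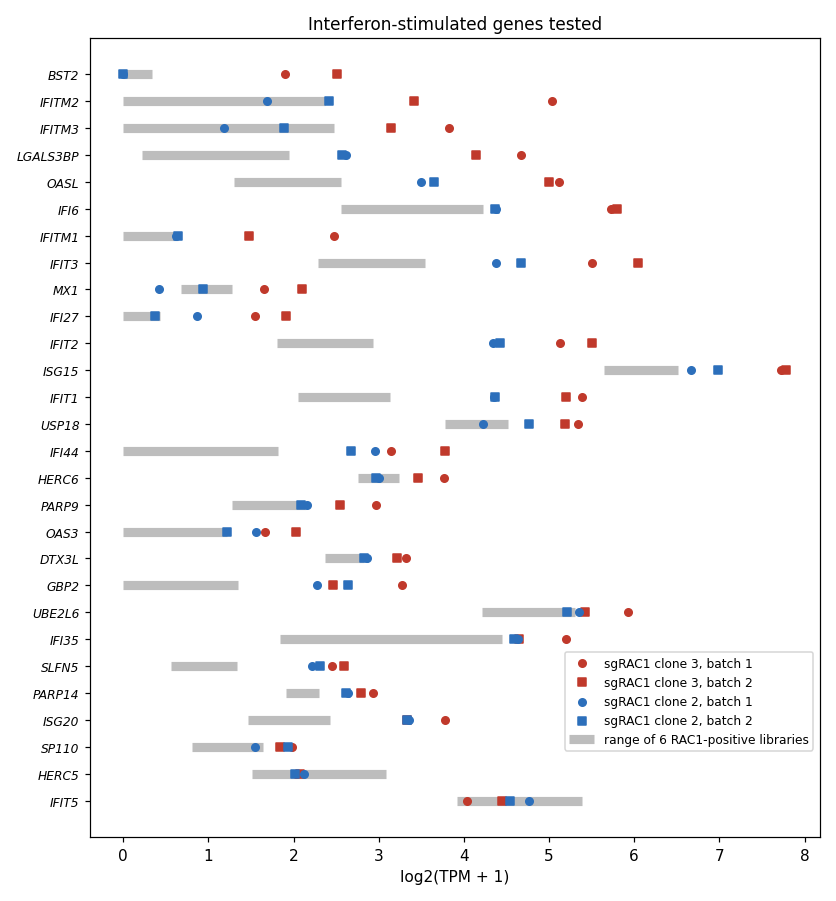
log2(TPM + 1) of the 28 interferon-stimulated genes tested, ordered by their difference, with red points for sgRAC1 clone 3, blue points for sgRAC1 clone 2 and a grey bar for the range of the 6 RAC1-positive libraries. Clone 3 lies to the right of clone 2 in 23 genes with no overlap and to the left in 1, IFIT5.

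Among genes that sense viral RNA, DHX58, a regulator of these sensors, had 0.958 and 1.497 TPM in clone 3, against 0.298 and 0 TPM in clone 2, and passed the filter through clone 3. The RNA sensor DDX58 (RIG-I) had 12.3 and 17.6 TPM in clone 3, against 12.4 and 11.997 TPM in clone 2.

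MHC class I genes present peptides at the cell surface and are also raised by interferon. All 22 listed class I and antigen-processing genes were tested, 1 of them through clone 3 alone. Their median difference was 0.44, 0.51 in batch 1 and 0.39 in batch 2. Libraries were apart with clone 3 higher in 15 and lower in 1, against 20.0% and 15.0% of all genes. An unadjusted p under 0.05 was found for 6, all higher in clone 3, against 2.64% of all genes. HLA-E had 144 and 116 TPM in clone 3, against 67.7 and 85.5 TPM in clone 2 (difference 0.76, SE 0.18, limma adjusted p = 0.999). HLA-B had 136 and 134 TPM in clone 3, against 91.6 and 89.2 TPM in clone 2, and at most 82.1 TPM in the RAC1-positive libraries. The RAC1-positive range was thus below clone 2 and further below clone 3. Of 11 MHC class II genes, which are usually limited to antigen-presenting cells, 4 were tested and 2 of these passed through clone 3 alone. HLA-DMA, a peptide-loading chaperone of class II, had 30.3 and 18.5 TPM in clone 3, against 13.3 and 10.3 TPM in clone 2, and 1.90 to 4.95 TPM in the RAC1-positive libraries. HLA genes share sequence and the way reads were assigned is unknown, so the split of reads between them is uncertain.

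**Figure D4:**
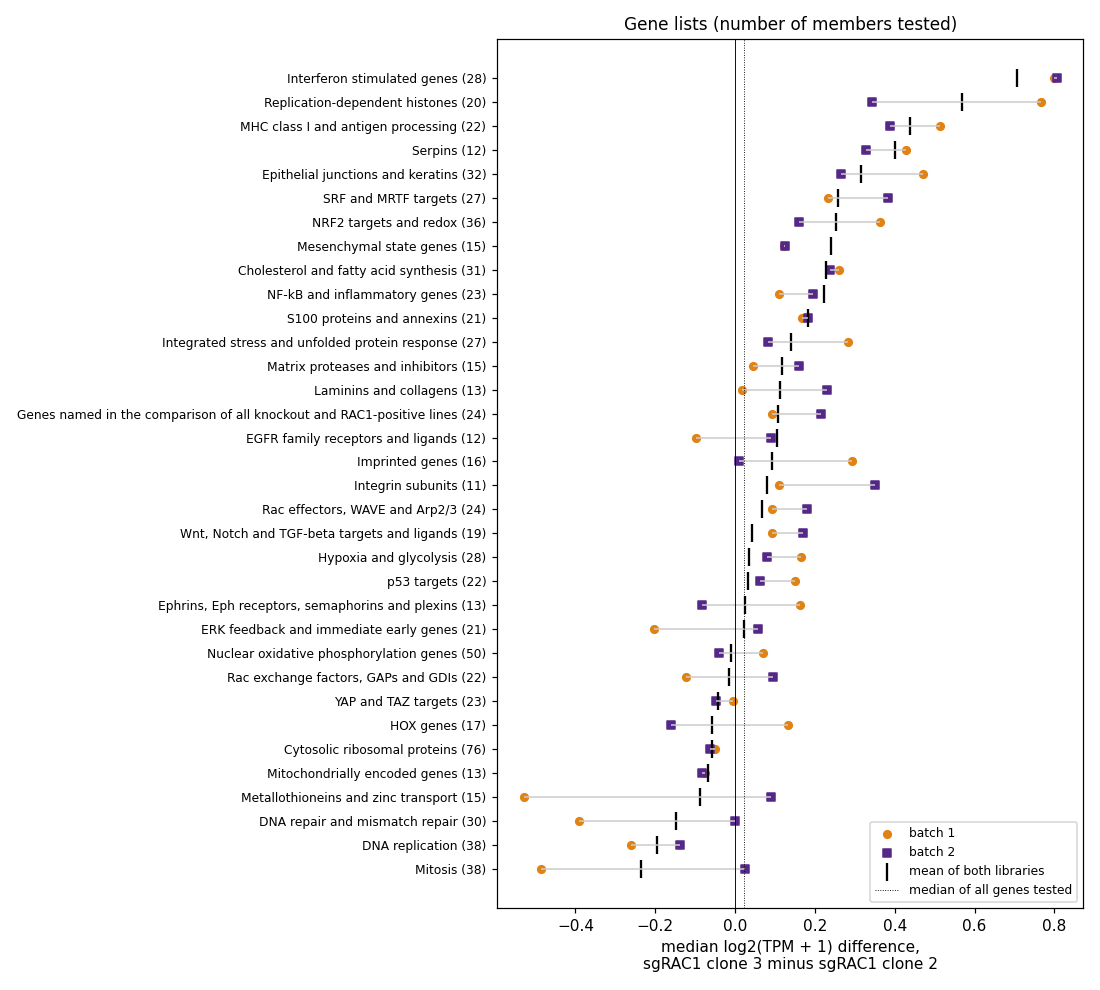
Median log2(TPM + 1) difference, sgRAC1 clone 3 minus sgRAC1 clone 2, of 34 of the 36 gene lists with at least 10 members tested, for batch 1 (circles), batch 2 (squares) and the mean of both libraries (bars). Interferon-stimulated genes lie at 0.80 and 0.81 in the batches, whereas mitosis genes lie at -0.49 in batch 1 and 0.02 in batch 2.

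Epithelial genes formed the next group. Of 46 listed genes of junctions and keratins 32 were tested, 1 through clone 3 alone and 1 through clone 2 alone. Their median difference was 0.32 (0.47 in batch 1 and 0.27 in batch 2). They were apart with clone 3 higher in 18 and lower in 1, against 20.0% and 15.0% of all genes, and 6 had an unadjusted p under 0.05, all higher, against 2.64% of all genes. Besides KRT8, CDH3, the gene of P-cadherin, had 84.5 and 99.0 TPM in clone 3, against 40.6 and 52.0 TPM in clone 2 and at most 24.6 TPM in the RAC1-positive libraries (limma adjusted p = 0.999). CDH1, for E-cadherin, had 12.3 and 17.6 TPM in clone 3, against 7.04 and 10.6 TPM in clone 2. KRT18, the partner of KRT8, had 115 and 268 TPM in clone 3, against 64.6 and 139 TPM in clone 2, so its batches differed more than its clones. The 15 mesenchymal genes tested, 2 of them through clone 3 alone, split into 8 with a positive and 7 with a negative difference. Against 20.0% and 15.0% of all genes, 6 of the 15 were apart higher and 3 lower. Their median was 0.24, but 0.12 within batch 1, 0.13 within batch 2 and 0.11 over the 14 members kept by a mean of at least 1 TPM over all 12 libraries. Among them NT5E, the ecto-enzyme CD73, had 28.6 and 44.4 TPM in clone 3, against 52.2 and 56.8 TPM in clone 2.

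Serpins, a family of protease inhibitors, had a median difference of 0.40 over 12 members tested of 20 listed, with 7 apart higher and 0 apart lower, against 20.0% and 15.0% of all genes, and 3 higher at an unadjusted p under 0.05, against 2.64%. SERPINA1, alpha-1-antitrypsin, had 58.3 and 61.6 TPM in clone 3, against 36.9 and 37.5 TPM in clone 2 and at most 22.0 TPM in the RAC1-positive libraries. Replication-dependent histone genes had a median of 0.57 over 20 members tested, 0.77 in batch 1 and 0.34 in batch 2. Of these 12 were apart higher and 2 lower, against 20.0% and 15.0% of all genes, and 5 were higher at an unadjusted p under 0.05, against 2.64%. HIST1H1C, for linker histone H1.2, had 1148 and 729 TPM in clone 3, against 507 and 532 TPM in clone 2, but 894 and 986 TPM in sgRAC1 clone 1. HIST2H2AA3 had 493 and 338 TPM in clone 3, against 257 and 222 TPM in clone 2, and 518 and 579 TPM in sgRAC1 clone 1. For both genes clone 3 was above clone 2 and the values of clone 1 were near or above those of clone 3. Histone genes have near-identical copies, and their values are uncertain for that reason.

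Genes of cholesterol and fatty acid synthesis had a median of 0.23 over 31 members tested, with 0.26 in batch 1 and 0.24 in batch 2. They were apart higher in 17 and lower in 0, against 20.0% and 15.0% of all genes. At an unadjusted p under 0.05 there was 1 gene, against 2.64% of all genes. This was DHCR7, the last enzyme of one branch of cholesterol synthesis, at 70.0 and 81.9 TPM in clone 3, against 40.3 and 60.4 TPM in clone 2 (limma adjusted p = 0.999). NRF2 targets and redox genes had a median of 0.25 over 36 members, 2 of them tested through clone 3 alone, with 20 apart higher and 5 lower. The most different member, GSTP1, went the other way from the median. SRF and MRTF targets, which respond to actin dynamics, had a median of 0.26 over 27 members, with 14 apart higher and 0 lower. Of the 27, 2 were tested through clone 3 alone. EGR1, an immediate early transcription factor on that list, had 34.6 and 23.4 TPM in clone 3, against 13.7 and 12.6 TPM in clone 2 (limma adjusted p = 0.999). YAP and TAZ targets had a median of -0.04 over 23 members, with 3 apart higher and 10 lower. The same shares of all genes, 20.0% apart higher and 15.0% apart lower, stand against the NRF2, SRF and YAP lists. Of prostate lineage genes 7 of 27 listed were tested, with a median of -0.04. Of the 7, 0 were apart higher and 2 lower, against the same shares of all genes. Cancer-testis antigens had 2 members tested and clustered protocadherins 1, none of them apart.

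Genes of the Rac pathway itself had medians near 0. Of 33 listed Rac exchange factors, GAPs and GDIs 22 were tested, with a median of -0.01, 5 apart higher and 3 lower. Of 26 effectors, WAVE and Arp2/3 genes 24 were tested, with a median of 0.07, 7 apart higher and 2 lower. Over all genes 20.0% were apart higher and 15.0% apart lower. In both lists 0 members passed limma's adjusted threshold and 0 had an unadjusted p under 0.05, against 2.64% higher and 1.52% lower of all genes.

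Proliferation genes lay on the lower side in clone 3, mostly in batch 1. Well-expressed genes in general leaned that way in batch 1. Over all 5369 protein-coding genes with a mean of at least 10 TPM over 12 libraries, 19.8% were apart lower and 18.0% apart higher. Their medians were -0.08 in batch 1 and 0.05 in batch 2. All 38 listed DNA replication genes were tested, with a median difference of -0.19, -0.26 in batch 1 and -0.14 in batch 2. They were apart with clone 3 lower in 24 and higher in 2, against 15.0% and 20.0% of all genes. An unadjusted p under 0.05 was found for 1, lower in clone 3, against 1.52% of all genes. RFC4, a subunit of the clamp loader, had 197 and 197 TPM in clone 3, against 255 and 247 TPM in clone 2 (difference -0.35, SE 0.11, limma adjusted p = 0.999). POLE2, a subunit of DNA polymerase epsilon, had 95.5 and 106 TPM in clone 3, against 121 and 136 TPM in clone 2. The 38 mitosis genes had a median of -0.49 in batch 1 and 0.02 in batch 2, so the difference did not hold within both batches. KIF11, a spindle motor, had 13.6 and 19.8 TPM in clone 3, against 26.0 and 24.2 TPM in clone 2. The 30 DNA repair genes behaved likewise, with -0.39 in batch 1 and -0.001 in batch 2. BRCA2, of homologous recombination, had 8.35 and 12.4 TPM in clone 3, against 18.7 and 15.4 TPM in clone 2 (limma adjusted p = 0.999). Cytosolic ribosomal protein genes had a median of -0.06 over 76 members. Of these 0 were apart higher and 25 lower, against 20.0% and 15.0% of all genes.

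Position along the genome was described next, because the guide cuts on the short arm of chromosome 7. Positions came from GENCODE release 29 on GRCh38 by symbol and were found for 70.2% of the genes tested. Over the 164 protein-coding genes tested on 7p the median difference was -0.16 (-0.16 in batch 1 and -0.11 in batch 2), against 0.03 for all protein-coding genes. Clone 3 was apart and lower in 43.3% of them, against 15.5% of all protein-coding genes. Over the other 40 arms the median ran from -0.11 on 13q to 0.14 on 19p. On 13q it was -0.24 in batch 1 and 0.01 in batch 2. With genes of a mean of at least 10 TPM over all 12 libraries, a level chosen after seeing the data, 7p had 92 genes and a median of -0.23, with -0.32 in batch 1 and -0.16 in batch 2. Of these, 60.9% were apart and lower in clone 3 and 1.09% apart and higher, against 19.8% and 18.0% of all 5369 such genes. On none of the other 40 arms was the median below 0 in batch 2, at either level. The next lowest arm at 10 TPM was 13q, with -0.30 in batch 1 and 0.01 in batch 2.

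The 7p genes on either side of RAC1 differed in how they stood to the RAC1-positive lines. For the 13 genes telomeric of RAC1 the median against the RAC1-positive mean was -0.57 in clone 3, -0.45 in clone 2 and -0.77 in sgRAC1 clone 1, and the single RAC1-positive lines lay between -0.06 and 0.08. For the 78 genes between RAC1 and the centromere it was -0.19 in clone 3, 0.10 in clone 2 and 0.06 in clone 1, with RAC1-positive lines between -0.12 and 0.07. Clone 3 was thus below clone 2 on both sides, by medians of -0.22 and -0.23, whereas all knockout clones were below the RAC1-positive lines on the telomeric side. Among the 78 genes 66 were lower in clone 3 than in clone 2. None of the called genes lay on 7p. FTSJ2, an RNA methyltransferase gene telomeric of RAC1, had 54.2 and 63.7 TPM in clone 3, against 72.7 and 69.6 TPM in clone 2 and 86.5 to 114 TPM in the RAC1-positive libraries. Chosen after their values were seen, GGCT, an enzyme of glutathione turnover, had 126 and 141 TPM in clone 3, against 196 and 184 TPM in clone 2, and RPA3, a subunit of the single-strand DNA binding protein RPA, had 103 and 98.9 TPM in clone 3, against 133 and 144 TPM in clone 2. DNA copy number was not measured, and its part in these levels was not tested.

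**Figure D5:**
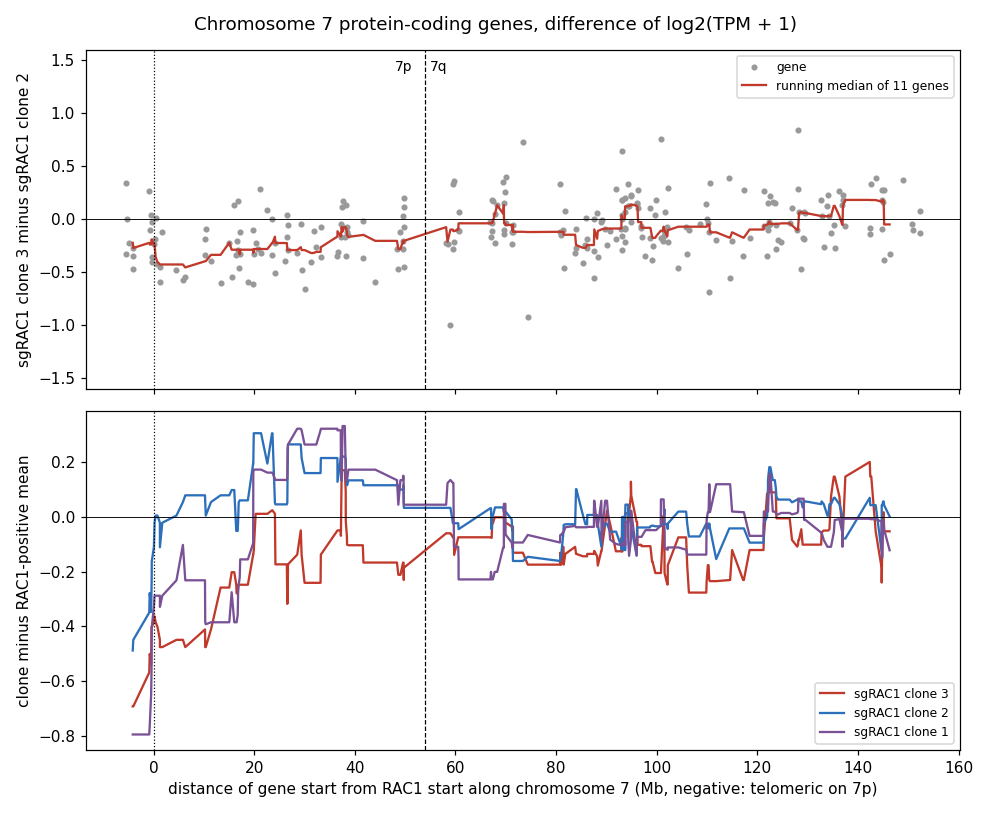
Protein-coding genes of chromosome 7 with a mean of at least 10 TPM, by the distance of their start from the RAC1 start in Mb (dotted line at RAC1, dashed line at the centromere). The upper panel shows log2(TPM + 1) in sgRAC1 clone 3 minus sgRAC1 clone 2 per gene with a running median of 11 genes, and the lower panel the running medians of each knockout clone minus the RAC1-positive mean; on 7p centromeric of RAC1 the gene medians are -0.19 in clone 3, 0.10 in clone 2 and 0.06 in clone 1.

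On 9q both clones of sgRAC1_2 had medians below the RAC1-positive mean, a comparison in which they share the RAC1-positive libraries. Over 319 protein-coding genes the median against the RAC1-positive mean was -0.22 in clone 3 and -0.27 in clone 2, against 0.04 in sgRAC1 clone 1. Between clones 3 and 2 the median was 0.05 (0.03 in batch 1 and 0.09 in batch 2). At a mean of at least 10 TPM the 161 genes had -0.32 in clone 3, -0.31 in clone 2 and 0.02 in clone 1.

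A list of 24 genes that separate all knockout from all RAC1-positive lines was also compared between these clones. It was chosen on the same libraries and is no independent evidence of direction. That choice also sets its distance from the RAC1-positive mean, so a smaller difference between the clones is no finding. Its median against the RAC1-positive mean was 1.03 in clone 3 and 0.71 in clone 2. Between the clones it was 0.11 (0.09 in batch 1 and 0.22 in batch 2), against 0.02 for all genes. Of the 24, 8 were apart higher and 3 lower, against 20.0% and 15.0% of all genes. At an unadjusted p under 0.05 there were 3 higher, against 2.64%. MPZL2, an adhesion protein of epithelia, had 265 and 300 TPM in clone 3, against 138 and 147 TPM in clone 2 and at most 58.3 TPM in the RAC1-positive libraries (difference 0.98, SE 0.24, limma adjusted p = 0.999). SAT1, the enzyme that starts polyamine breakdown, had 694 and 571 TPM in clone 3, against 403 and 456 TPM in clone 2 and at most 183 TPM in the RAC1-positive libraries. MCM4, a subunit of the replicative helicase, had 56.0 and 107 TPM in clone 3, against 52.0 and 107 TPM in clone 2, so its batches differed and its clones did not separate.

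The pair of non-targeting clones, sgNTC clone 2 against sgNTC clone 1, shares no library with the pair above and shows how far clones of 1 guide differ without a knockout. Of 17459 genes 0 were called by limma (0.0%), while 1449 had an unadjusted p under 0.05, 626 higher (3.59%) and 823 lower (4.71%) in sgNTC clone 2. Libraries were apart with sgNTC clone 2 higher in 15.9% and lower in 14.5%. Over 10437 protein-coding genes alone 2 were called higher and 2 lower (0.0192% in each direction), with 6.27% higher and 3.5% lower at an unadjusted p under 0.05 and 21.2% apart higher and 11.5% apart lower. The called genes were CLDN11 and C15orf48 on the higher side and F2RL1 and SCEL on the lower side. C15orf48 had 211 and 140 TPM in sgNTC clone 2, against 59.1 and 43.2 TPM in sgNTC clone 1, and F2RL1, a protease-activated receptor, had 5.19 and 5.29 TPM in sgNTC clone 2, against 26.7 and 24.3 TPM in sgNTC clone 1. C15orf48 was thus apart within both pairs, without passing between the sgRAC1 clones. Protein-coding genes with a log2 difference of at least 1, libraries apart and at least 5 TPM numbered 41 higher (0.393%) and 52 lower (0.498%) in sgNTC clone 2, against 48 and 6 in sgRAC1 clone 3. The library that stood apart is 1 of the 2 of sgNTC clone 2, and no test compared the pairs.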

How the data were processed

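RNA-seq libraries of 6 DU145 lines were analysed, 2 per line. RNA was taken with TRIzol and 160 ng went into each library, made with SMARTScribe reverse transcriptase, amplification and tagmentation (per the labels' protocols). Tools named without a role in the submitters' processing notes are STAR 2.6.1d, bcl2fastq and DESeq2, with the build GRCh38. The authors deposited 1 table with a TPM value per gene and library. How reads were counted, on which strand and against which annotation was not given in the sources used here. Overlapping, antisense and near-identical genes may share reads. TPM does not state the depth and scales each library to the same sum. The authors' own comparison was not used.

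Genes averaging 1 TPM or more in at least 1 clone of a pair were tested on log2(TPM + 1) with limma 3.58.1 in R 4.3.3, 1 mean per line over 12 libraries, moderated variances with a trend and Benjamini-Hochberg adjustment at 0.05 over all genes tested. This scale understates differences of genes near or below 1 TPM. The design had 6 residual degrees of freedom. The code was tested on simulated data.

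Named genes were RAC1, then per direction 12 genes, the called ones by largest difference and the rest by smallest p, with libraries apart and at least 5 TPM in the higher clone. Genes of chromosome Y, pseudogenes by biotype and clone-name or LINC symbols were left out. Per gene list up to 4 called members, or otherwise the 2 of smallest p, could be named, and 3 per direction from the sgNTC pair. Members, lists and this rule were chosen with earlier results of these data known. Of 40 lists, 36 had at least 10 members tested, and 2 of these are not reported here.

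The replicate number is the batch per the labels, so it pairs the libraries, and a fit with it as a block was run; same-numbered deviations of clones 3 and 2 correlated at 0.026. No identical libraries were found among 66 pairs. Alternatives covered the block, the 4 libraries of the pair alone, scaling by upper quartile or median of ratios, other level filters, the pseudocount, the variance trend, each library left out, and, added after seeing the data, protein-coding genes alone.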

Additional observations from a re-analysis of the deposited data

How the results depend on the processing

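The 8 calls over all genes were made 0 by the replicate block, by a filter of 5 TPM and by a pseudocount of 0.1, 1 by the 4 libraries alone with or without the block, and 20 by no level filter. They were again 8 under both scalings, 7 at a pseudocount of 5 and 10 without the variance trend. Leaving out 1 library gave 0 to 235 calls. Where this left a clone with 1 library, that library was assumed to vary like the other lines, and only 5 to 10 of the calls were protein coding. For protein-coding genes the 4 calls were 4 with the replicate block, 1 with the 4 libraries alone, 2 under median-of-ratios scaling, no level filter or a filter of 5 TPM, 1 at a pseudocount of 0.1, 8 at a pseudocount of 5, and 0 to 4 with 1 library left out. The 4 libraries with the replicate block gave 113, a fit with 1 residual degree of freedom whose spread rests on a prior of 47.8. FGB had a difference of 2.42 to 2.81 and an adjusted p of 0.00838 to 0.212 over 15 alternatives, under 0.05 in 9. In the protein-coding fits the adjusted p stayed under 0.05 for FGB in 12 of 15 alternatives, BST2 in 9 of 14, GSTP1 in 6 of 15 and RSPO3 in 6 of 14. There the difference of BST2 ran from 0.79 to 5.21, that of GSTP1 from -3.79 to -1.76 and that of RSPO3 from -3.00 to -0.81. RAC1 had -0.56 to -0.43 and did not pass under any of the 15.

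For the sgNTC pair the 0 calls were 1 under median-of-ratios scaling, 11 with no level filter or a pseudocount of 0.1, 2 at a filter of 5 TPM, 8 without the variance trend, and 187 to 2916 with 1 library left out, the highest without sgNTC clone 2 replicate 2. Its 4 protein-coding calls were 11 with the replicate block, 0 with the 4 libraries alone, 605 with these and the replicate block, 2 with no level filter and 0 to 1980 with 1 library left out. Over 97 named genes and up to 15 alternatives, 7 values changed sign, all in genes far from the threshold. PRAME had 0.04, against -0.003 under upper quartile scaling and -0.033 to 0.1086 with 1 library left out. With 1 library left out DDX43 ranged from -0.2762 to 0.189 and PCDHB2 from -0.1755 to 0.164. The causes were not tested. Read counts were not given, and the counting error of values near 1 TPM was not computed.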

Other observations

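A few further protein-coding genes with both clone 3 libraries above both clone 2 libraries were picked for that after their values were seen, and stand for no gene group. DEFB1, a defensin, had 16.7 and 10.0 TPM in clone 3, against 2.40 and 3.81 TPM in clone 2, 6.68 and 17.9 TPM in sgRAC1 clone 1 and at most 0.900 TPM in the RAC1-positive libraries. S100A9, a subunit of calprotectin, had 42.5 and 26.6 TPM in clone 3, against 12.9 and 7.37 TPM in clone 2 and at most 8.86 TPM in the RAC1-positive libraries. SLPI, a protease inhibitor, had 42.2 and 26.5 TPM in clone 3, against 17.3 and 9.17 TPM in clone 2. C1S, a protease of the classical complement pathway, had 9.40 and 11.4 TPM in clone 3, against 2.92 and 4.60 TPM in clone 2, and its inhibitor SERPING1 had 6.13 and 2.79 TPM in clone 3, against 1.27 and 2.02 TPM in clone 2. None passed the limma adjusted threshold, with an adjusted p of 0.999 for each.

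Not every difference followed the line. GPR174, a lymphoid receptor gene, had 122 and 91.4 TPM in clone 3, against 72.6 and 6.05 TPM in clone 2, 7.69 and 153 TPM in sgRAC1 clone 1, and 0.927 to 181 TPM in the RAC1-positive libraries, so libraries of the same line differed more than lines.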
